A study of Mus musculus with 2 samples.

Results

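The genes described here are 40 genes of DNA replication and mitosis, listed by name for their roles and not by a measured value: 22 replication genes and 18 mitosis genes. All 40 have at least 1 probe on the array, with 60 probes in 69 spots, out of 27597 gene names, 41174 probes and 43379 spots. Probes were taken under the current symbol or an older one, such as Cdc2a for Cdk1, Cdc45l for Cdc45 and 4833427B12Rik for Gins2. The names Aim1 and Gins4 are also older symbols of Aurkb and Gins1, but those probes lie on chromosomes 10 and 8 and were left out. The genes were measured in B cells that had been sorted from mouse peripheral lymph nodes by flow cytometry and used for RNA without culture. The wild-type group is strain C57BL/6J, and the Ccr7 knock-out group is strain B6.129P2(C)-Ccr7tm1Rfor/J, whose targeted allele is present in all cells of the animal and not in B cells alone. The design text describes 6 sorted samples per genotype, combined as RNA in pools of 3, so that each of 2 two-colour arrays held 1 wild-type and 1 knock-out pool. The knock-out pool carried Cy5 on array 1 and Cy3 on array 2. The labels give no age, sex or sort marker.

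Cells that divide first license and copy their DNA and then separate the copies. In the replication step the MCM helicase is loaded by Cdc6 and Cdt1, activated with Cdc45 and the GINS complex, and followed by primase, DNA polymerases and the sliding clamp PCNA. Mitosis is driven by cyclin-dependent kinase 1 with A-type and B-type cyclins, and spindle, kinetochore and checkpoint proteins carry it out. Most lymph node B cells rest outside the cell cycle, and proliferating B cells are found above all in germinal centres. Replication genes are textbook targets of E2F factors, and many mitosis genes carry a cell cycle homology region, with core TTTGAA, and CCAAT boxes at their promoters.

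The promoter sequences of the genes differed along that division. RefSeq promoter windows on GRCm38.p6, each 300 bases long with 250 before and 50 after the start, were matched for 34 of the 40 genes. Motifs were searched on both strands, and a base could count towards more than 1 motif. The letters TTTGAA occurred in 10 of 15 mitosis windows (66.7%), in 2 of 21 replication windows (9.52%) and in 17.9% of all 32851 windows. An E2F-type motif, TTTCCCGC or TTTGGCGC, occurred in 8 of 21 replication windows (38.1%), in 0 of 15 mitosis windows and in 1.56% of all windows. CCAAT was present in 13 of 15 mitosis windows (86.7%), 16 of 21 replication windows (76.2%) and 37.4% of all windows. The bases before the start of 5 genes are printed here because they display these types, with motif letters in capitals; CCAAT on the other strand reads ATTGG, and TTTCCCGC reads GCGGGAAA. Mki67 (chr7:135716380-135716629, minus strand) and Cdk1 (chr10:69352913-69353162, minus strand) hold TTTGAA and CCAAT. Ccnb1 (chr13:100786487-100786736, minus strand) holds CCAAT only. Mcm6 (chr1:128359706-128359955, minus strand) holds TTTGGCGC and CCAAT, and Cdc6 (chr11:98907901-98908150, plus strand) holds TTTCCCGC only. All are written 5′ to 3′ in the direction of the gene.
Mki67: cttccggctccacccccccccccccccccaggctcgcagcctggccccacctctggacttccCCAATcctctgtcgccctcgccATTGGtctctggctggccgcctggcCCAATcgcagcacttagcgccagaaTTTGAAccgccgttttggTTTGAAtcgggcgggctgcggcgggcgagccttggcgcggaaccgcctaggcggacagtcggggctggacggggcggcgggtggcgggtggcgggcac
Cdk1: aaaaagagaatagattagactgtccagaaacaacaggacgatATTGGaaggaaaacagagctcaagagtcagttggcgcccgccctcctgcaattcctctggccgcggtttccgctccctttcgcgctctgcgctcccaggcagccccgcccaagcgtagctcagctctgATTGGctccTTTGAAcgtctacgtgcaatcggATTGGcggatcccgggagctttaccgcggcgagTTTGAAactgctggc
Ccnb1: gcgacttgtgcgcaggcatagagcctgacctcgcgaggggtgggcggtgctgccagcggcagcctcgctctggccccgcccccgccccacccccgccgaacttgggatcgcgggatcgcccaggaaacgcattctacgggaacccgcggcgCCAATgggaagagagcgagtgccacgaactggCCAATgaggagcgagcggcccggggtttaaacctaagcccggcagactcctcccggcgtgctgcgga
Mcm6: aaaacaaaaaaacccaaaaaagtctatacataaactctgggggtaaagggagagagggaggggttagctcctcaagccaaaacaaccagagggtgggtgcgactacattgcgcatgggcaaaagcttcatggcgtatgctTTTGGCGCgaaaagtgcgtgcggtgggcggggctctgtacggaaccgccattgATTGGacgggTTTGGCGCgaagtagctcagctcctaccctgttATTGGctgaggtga
Cdc6: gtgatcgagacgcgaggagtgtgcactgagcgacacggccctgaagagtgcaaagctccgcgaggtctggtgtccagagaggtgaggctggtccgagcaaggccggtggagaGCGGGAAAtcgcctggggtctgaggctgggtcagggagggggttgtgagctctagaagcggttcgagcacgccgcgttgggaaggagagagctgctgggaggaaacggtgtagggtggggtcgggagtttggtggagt
A match describes these letters and does not show that a factor binds there.

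Ccr7, the deleted chemokine receptor gene, was checked on both arrays before the other genes. Its normalized log2 intensity was 12.55 and 12.40 in the wild-type pools of arrays 1 and 2 and 11.44 and 11.66 in the knock-out pools. The mean knock-out to wild-type log2 ratio was -0.93 ± 0.15 (SE, n = 2), with a limma adjusted p of 0.137. Whether its probe lies in the deleted part is not known here, so the remaining signal is no measure of the deletion. All 8 B-cell markers of the list, among them Cd79a, Cd79b, Ms4a1 and Pax5, were well above background in both genotypes on both arrays. Of the 8, 1 was higher in the knock-out on both arrays and 1 lower on both, beside 24.2% and 30% of all genes. The lower marker was Pax5 (log2 ratio -0.82, limma adjusted p 0.137). The other 6 had opposite signs, with 1.45 and -1.52 on the arrays for Cd79b and 1.75 and -1.23 for Ms4a1. No spot was saturated, and 58.4% to 68.8% of spots per channel were well above background. The number of arrays limits the precision: limma's p-values and SE combine 1 residual degree of freedom per gene with 6.26 prior degrees of freedom pooled over all genes. They do not measure the spread between the 12 sorted samples. In pooled RNA, fewer cells of a type and less RNA per cell cannot be told apart.

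No replication or mitosis gene passed the test between the genotypes, which with 2 arrays does not show that their levels were equal. A gene was tested where the wild-type or the knock-out channel was well above background on both arrays, through its brightest such probe. This held for 39 of the 40 genes; the exception was Cenpf, a kinetochore protein gene, whose brighter probe was above background in the knock-out on array 1 and the wild-type on array 2 only. Of the 39, 0 passed an adjusted p of 0.05 in limma, beside 18 of all 17684 genes (0.102%), and 0 passed in each of 11 other settings. The smallest adjusted p was 0.326, for Mki67. At an unadjusted p of 0.05 in limma, 5 of the 39 were higher in the knock-out (Mki67, Birc5, Ccna2, Bub1 and Tk1), where 3.17% of all genes were, and 1 was lower (Aurkb), where 5.98% of all genes were. Bub1, Cdk1 and Top2a entered the test through the knock-out channels alone, and Kif11 through the wild-type channels alone. With every channel required above background, 4 of 35 genes were higher at this limma threshold and 1 lower. The shares of all genes were not counted for that setting.

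The small differences leaned upwards. Of the 39 genes, 20 (51.3%) were higher in the knock-out on both arrays, where 24.2% of all genes were, and 9 (23.1%) were lower on both, where 30% of all genes were. The other 10 had opposite signs. With every channel required above background, 17 of 35 (48.6%) were higher on both arrays, where 24.9% of all genes were. With median centring in place of loess, 9 of the 39 (23.1%) were higher on both arrays against 11.1% of all genes; that scaling lowered the median of all genes from -0.01 to -0.17. In normalized level, both knock-out pools stood above both wild-type pools for 13 genes, where this held for 9.56% of all genes, and below both for 3 genes, where 13.3% of all genes did so. The 13 include Bub1 and Cdk1, which entered the test through the knock-out channels alone. The ratios of the 39 genes on array 1 and array 2 had a Pearson's r of 0.43, beside 0.098 for all genes, and genes of the same pools are not independent. As a description this carries no test.

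**Figure D1:**
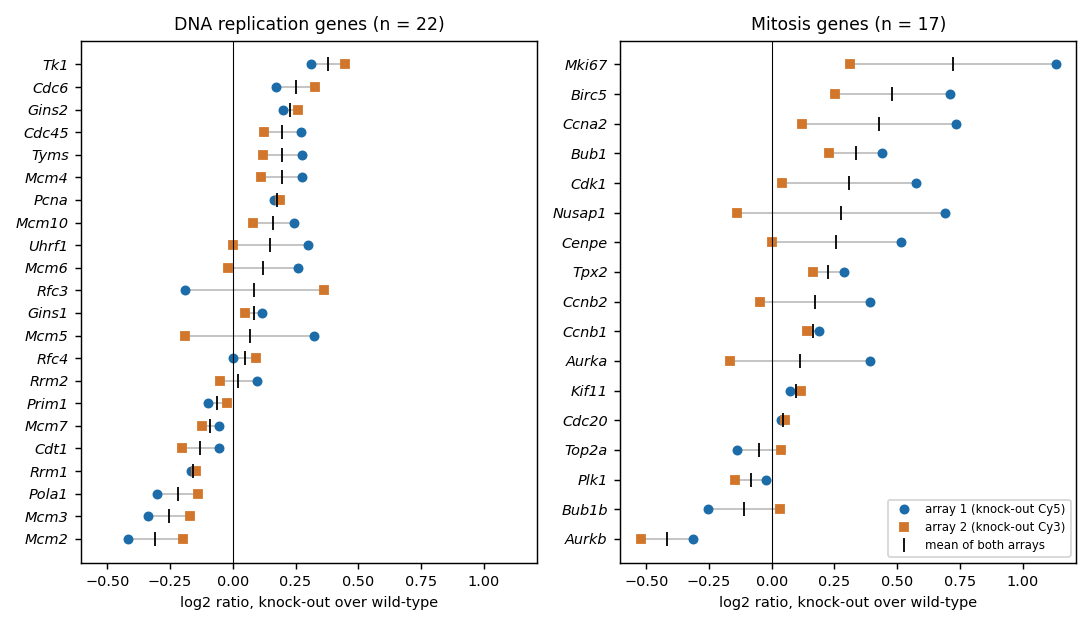
Knock-out to wild-type log2 ratio for each replication gene (left, n = 22) and mitosis gene (right, n = 17) on array 1 (circles) and array 2 (squares), with the mean as a vertical tick. Mitosis genes spread from -0.42 (Aurkb) to 0.72 (Mki67) and replication genes from -0.31 (Mcm2) to 0.38 (Tk1), and for most mitosis genes the circle lies to the right of the square.

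The replication genes lay close to 0 in both directions. Their median log2 ratio was 0.08, from 0.14 on array 1 and 0.03 on array 2, beside -0.01 for all genes; with median centring it turned to -0.16, beside -0.17 for all genes. Of the 22 genes, 11 were higher on both arrays, 7 lower on both and 4 of opposite sign. Mean ratios were under 0.25 in size for 18 of the 22.

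Among enzymes that supply nucleotides, Tk1, the thymidine kinase of S phase, stood apart from the others. Its level was 12.12 and 11.85 in the wild-type pools and 12.44 and 12.30 in the knock-out pools, so that the genotypes did not overlap. Its log2 ratio was 0.38 ± 0.13 (SE, n = 2), or 1.30-fold higher, with a limma adjusted p of 0.425. With no within-array normalization the ratio of Tk1 turned to -0.13, where the median of all genes was -0.39. Tyms, thymidylate synthase, had a mean ratio of 0.20, and its 3 probes gave 0.20, 0.14 and 0.06. The subunits of ribonucleotide reductase were at -0.16 (Rrm1) and 0.02 (Rrm2).

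None of the factors that load or activate the helicase passed the test, and their ratios were small. Cdc6, a loading factor, had levels of 6.69 and 6.73 in wild-type and 6.86 and 7.06 in the knock-out, and a log2 ratio of 0.25 ± 0.13 (SE, n = 2; limma adjusted p 0.639). Its other probe was not well above background in any channel. Gins2, a GINS subunit, had levels of 7.79 and 7.75 in wild-type and 7.99 and 8.01 in the knock-out, and its log2 ratio was 0.23 ± 0.13 (SE, n = 2; limma adjusted p 0.670). The genotypes did not overlap for either gene, and with no within-array normalization the ratio of Gins2 turned to -0.06. Cdc45 had a ratio of 0.20, and Gins1 had 0.08 by its brighter probe and 0.24 by its dimmer one. Cdt1, the partner of Cdc6 in loading, was at -0.13. Of factors of these steps in the wider replication list, Gins3 was at 0.04 and Cdc7 at 0.05. The tested origin recognition subunits ranged from -0.20 (Orc3) to 0.16 (Orc6).

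The 6 subunits of the MCM helicase had ratios on both sides of 0, and none passed the test. Mcm2 had levels of 10.57 and 10.36 in wild-type and 10.15 and 10.16 in the knock-out. The knock-out pools were both below the wild-type pools, and the log2 ratio was -0.31 ± 0.13 (SE, n = 2), or 1.24-fold lower, with a limma adjusted p of 0.549. Mcm3 had levels of 12.97 and 12.77 in wild-type and 12.63 and 12.60 in the knock-out by its bright probe, and its log2 ratio was -0.26 ± 0.13 (SE, n = 2; limma adjusted p 0.633). A dimmer Mcm3 probe gave 0.13, with 0.04 and 0.23 on the arrays, so the direction of Mcm3 depended on the probe. Mcm4 was at 0.19, Mcm5 at 0.07, Mcm6 at 0.12 and Mcm7 at -0.09. The ratio of Mcm5 was 0.32 on array 1 and -0.19 on array 2. Mcm10, a replisome factor outside the ring, was at 0.16.

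Genes of primase, polymerase and clamp loading also lay on both sides of 0. Pola1, the catalytic subunit of polymerase alpha, had levels of 10.32 and 10.49 in wild-type and 10.02 and 10.35 in the knock-out. The groups overlapped, and the log2 ratio was -0.22 ± 0.13 (SE, n = 2; limma adjusted p 0.710). Prim1, the primase subunit, was at -0.06, and the clamp loader genes Rfc3 and Rfc4 were at 0.09 and 0.05. Rfc3 had -0.19 and 0.36 on the arrays. Uhrf1, which recognizes newly copied methylated DNA, was at 0.15 by its brighter probe and 0.06 by the other.

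Pcna, the sliding clamp, was printed in 10 spots of the same probe, which shows the spread within an array. On array 1 the spots gave log2 ratios from 0.09 to 0.49 with a median of 0.14, and on array 2 from 0.15 to 0.27 with a median of 0.19. The SD over spots was 0.11 on array 1 and 0.04 on array 2. The highest spot of array 1 lay far from the other 9. Averaged over spots, Pcna had 0.17 and 0.19 on the arrays and a mean of 0.18, with an adjusted p of 0.779 in limma. Pcna, Mcm6, Mcm7 and Cdt1 each had a channel that the scanner program scaled up from its low-gain scan, and no mitosis gene did.

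The mitosis genes were more often higher than lower, and mainly on array 1. Their median log2 ratio was 0.17, from 0.39 on array 1 and 0.04 on array 2; it turned to -0.09 with no within-array normalization, where the median of all genes was -0.39. Of the 17 tested, 9 were higher on both arrays, 2 lower on both (Aurkb and Plk1) and 6 of opposite sign. For 13 of the 17 the ratio was larger on array 1 than on array 2, and for the replication genes this held for 11 of 22. The share of all genes for which this held was not counted. The median of all genes was -0.005 on array 1 and -0.02 on array 2. The dye of the knock-out pool and the pair of pools both changed between the arrays. They cannot be told apart in the gap of the mitosis genes between arrays.

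Mki67, which codes for the Ki-67 protein that coats mitotic chromosomes and marks cycling cells, had the largest ratio. By its brighter probe (chromosome 7, 135528251 to 135528310 on mm8) its level was 9.0 and 9.76 in wild-type and 10.13 and 10.07 in the knock-out. The wild-type pool of array 1 was lowest, and the genotypes did not overlap. The arrays gave log2 ratios of 1.13 (array 1) and 0.31 (array 2) and a mean of 0.72 ± 0.20 (SE, n = 2), or 1.65-fold higher. Its limma adjusted p was 0.326. The dimmer probe, on the same chromosome from 135532672 to 135532731 on mm8, gave 0.54 and 0.42 on the arrays.

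The cyclin genes and Cdk1, their kinase, gave small positive means. Ccna2, or cyclin A2, had levels of 7.02 and 7.68 in wild-type and 7.75 and 7.80 in the knock-out. The arrays gave log2 ratios of 0.73 (array 1) and 0.12 (array 2), and their mean was 0.43 ± 0.17 (SE, n = 2) and a limma adjusted p of 0.515. Cdk1 had levels of 6.32 and 6.85 in wild-type and 6.90 and 6.89 in the knock-out. It was not well above background in wild-type on array 1, and its ratios were 0.57 and 0.04, with a mean of 0.31 ± 0.16 (SE, n = 2; limma adjusted p 0.642). For Ccna2 and Cdk1 alike the difference came mostly from the low wild-type pool of array 1. Ccnb2, a B-type cyclin, had 0.39 and -0.05 on the arrays.

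Ccnb1, the other B-type cyclin, was read by 3 probes within a short stretch of chromosome 13. The brightest probe (101879936 to 101879995 on mm8) had levels of 7.45 and 7.47 in wild-type and 7.64 and 7.61 in the knock-out, and a log2 ratio of 0.16 ± 0.13 (SE, n = 2; limma adjusted p 0.806). The probe next in brightness over both arrays gave 0.47 and 0.38 on the arrays, with a mean of 0.43. The third gave -0.24 and 0.14, with a mean of -0.05. All 3 were well above background in every channel, so the size and the sign of the Ccnb1 difference depended on the probe. With no within-array normalization the ratio of the brightest probe turned to -0.09.

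**Figure D2:**
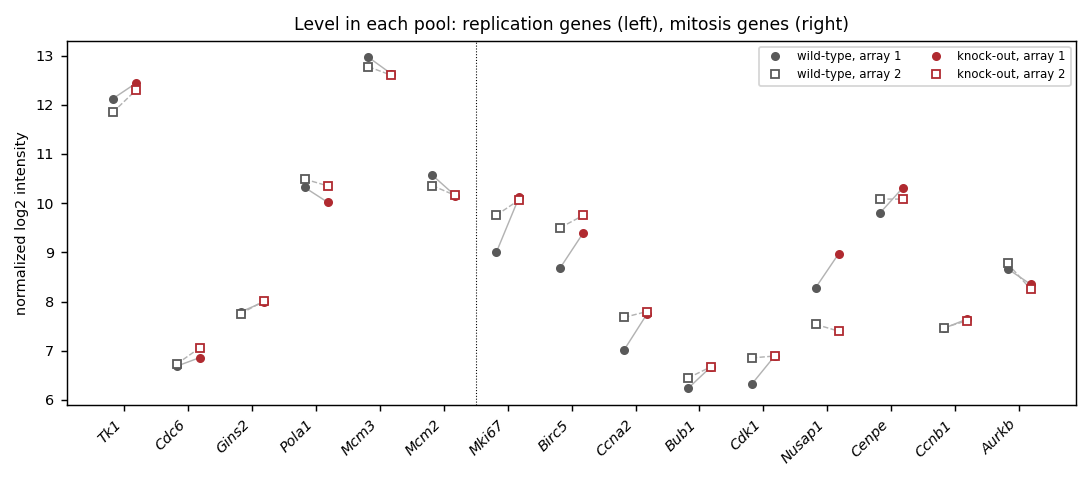
Normalized log2 intensity of 15 genes in the wild-type pools (grey) and knock-out pools (red) of array 1 (filled circles) and array 2 (open squares), with lines joining the pools of an array; levels of different genes come from different probes and are not comparable. The wild-type pool of array 1 is the lowest point of Mki67, Birc5, Ccna2, Bub1 and Cdk1, and for Aurkb, Mcm2 and Mcm3 both knock-out points lie below both wild-type points.

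Of the chromosomal passenger complex, which corrects kinetochore attachment and guides cytokinesis, the set holds Birc5 and Aurkb, and neither passed the test. Birc5, or survivin, had levels of 8.68 and 9.5 in wild-type and 9.39 and 9.75 in the knock-out. The genotypes overlapped across arrays, and within arrays the log2 ratio was 0.71 and 0.25, with a mean of 0.48 ± 0.15 (SE, n = 2; limma adjusted p 0.388). Aurkb, the kinase of this complex, had levels of 8.67 and 8.78 in wild-type and 8.35 and 8.26 in the knock-out. Both knock-out pools were below both wild-type pools, and the log2 ratio was -0.42 ± 0.13 (SE, n = 2), or 1.34-fold lower, with a limma adjusted p of 0.388. It was the lowest ratio among all 39 genes. The other subunits, from the wider mitosis list, were at -0.01 (Incenp) and 0.24 (Cdca8, with 0.58 and -0.11 on the arrays), and differences between subunits were not tested.

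Checkpoint, spindle and kinetochore genes were mixed. Bub1, a checkpoint kinase, had levels of 6.23 and 6.45 in wild-type and 6.67 and 6.67 in the knock-out, and its log2 ratio was 0.33 ± 0.13 (SE, n = 2; limma adjusted p 0.512). It was close to the detection limit and not well above background in wild-type on array 1, while its partner Bub1b had a ratio of -0.11. Nusap1, a microtubule-binding spindle protein gene, had levels of 8.29 and 7.54 in wild-type and 8.98 and 7.40 in the knock-out. Its ratios were 0.69 and -0.14, so the arrays gave opposite directions, and the mean was 0.28 ± 0.20 (SE, n = 2; limma adjusted p 0.780). Cenpe, a kinetochore motor gene, had levels of 9.79 and 10.08 in wild-type and 10.31 and 10.08 in the knock-out by its brightest probe. The ratio was 0.52 on array 1 and near 0 on array 2, and the mean was 0.26 ± 0.16 (SE, n = 2; limma adjusted p 0.726). A dimmer probe, not well above background in the knock-out on array 2, gave a mean of -0.04.

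The remaining 8 mitosis genes tested had mean log2 ratios from -0.11 (Bub1b) to 0.23 (Tpx2). Aurka, a spindle pole kinase, had 0.39 and -0.17 on the arrays, and Tpx2, its activator, had 0.29 and 0.16. Plk1, a mitotic kinase, was at -0.08, Cdc20, the activator of the anaphase-promoting complex, at 0.04, and Kif11, the motor that pushes spindle poles apart, at 0.10. Top2a, which untangles DNA, had -0.14 and 0.04 on the arrays, and 2 other Top2a probes were not well above background in any channel. Cdk1, Bub1, Top2a and Kif11 each lacked a signal well above background in 1 of 4 channels, so their ratios rest on dim spots that the background offset of 50 draws towards 0.

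**Figure D3:**
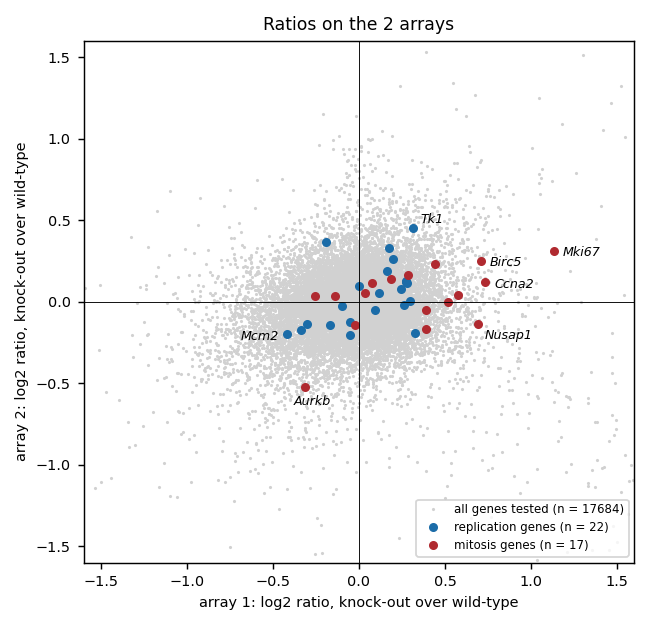
Knock-out to wild-type log2 ratio on array 1 (x axis) against array 2 (y axis) for 17684 genes (grey), 22 replication genes (blue) and 17 mitosis genes (red); 54 genes lie outside the axes. Mki67, Birc5 and Ccna2 lie to the right and only slightly above 0 on array 2, Aurkb lies at the lower left, and most replication genes lie inside the cloud of all genes.

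Genes with several probes show how far the ratio depends on the probe. Of the 60 probes, 48 passed the background filter, and 7 genes had more than 1 such probe. Of these 48 probes, 27 were higher on both arrays and 9 lower on both. The same shares over all fitted probes were not counted, so these counts are not read as a result about the genes. Probes of Mki67, Gins1, Tyms and Uhrf1 had means of 1 sign, whereas those of Ccnb1, Cenpe and Mcm3 did not. From the brightest probe on, the means were 0.16, 0.43 and -0.05 for Ccnb1, 0.26 and -0.04 for Cenpe, and -0.26 and 0.13 for Mcm3.

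**Figure D4:**
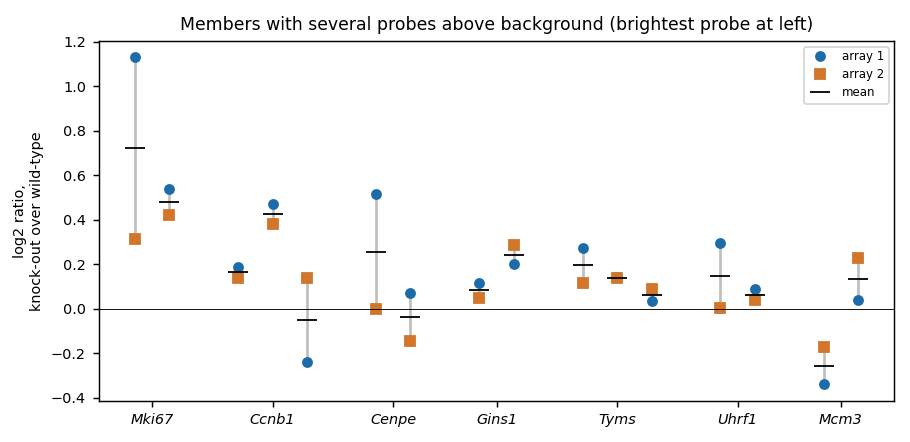
Knock-out to wild-type log2 ratio on array 1 (circles) and array 2 (squares), with the mean as a bar, for each probe that passed the background filter in the 7 genes with more than 1 such probe, brightest at left. Both Mki67 probes are above 0 on both arrays, and the probes of Ccnb1, Cenpe and Mcm3 have means on both sides of 0.

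By median and by shared direction on the arrays, other genes of the same processes lay closer to the values of all genes. Among 44 other replication genes, such as origin recognition, polymerase and clamp loader subunits, 42 were tested and 0 passed the adjusted threshold or an unadjusted p of 0.05 in limma. Their median log2 ratio was 0.04, with 13 of 42 (31.0%) higher on both arrays and 12 (28.6%) lower on both. Among 60 other mitosis genes, 49 were tested and 0 passed the adjusted threshold in limma. At an unadjusted p of 0.05 in limma, 3 of the 49 were higher (Ncapg, Cdca5 and Ube2c), where 3.17% of all genes were. At the same threshold 6 of the 49 were lower (Kifc1, Cdc25b, Cenpa, Kif20b, Ndc80 and Kif23), where 5.98% of all genes were. The median of these 49 was 0.03, and 16 (32.7%) were higher on both arrays against 13 (26.5%) lower on both. Ncapg, a condensin subunit gene, had the largest ratio of them at 0.71, from 0.75 and 0.68 on the arrays. Kifc1, a minus-end spindle motor gene, had the lowest at -0.61, and Cenpa, the centromeric histone gene, was at -0.48. The difference between the 39 genes and these wider lists was not tested.

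Genes that admit cells to the cycle or hold them back were taken from 2 more lists. Of 20 tested genes of cell cycle entry, 0 passed the adjusted threshold in limma, 9 (45%) were higher on both arrays and 3 (15.0%) lower on both, beside 24.2% and 30% of all genes, with a median log2 ratio of -0.01. E2f4, a mainly repressive E2F factor, had levels of 10.07 and 9.67 in wild-type and 8.98 and 9.15 in the knock-out, and a log2 ratio of -0.80 with a limma adjusted p of 0.223; it was the only 1 of the 20 past an unadjusted p of 0.05 in limma. Of 12 tested kinase inhibitor and quiescence genes, 0 were higher on both arrays and 6 (50%) were lower on both, beside the same shares of all genes, with a median of -0.12, and in limma 0 passed the adjusted threshold or an unadjusted p of 0.05. Cdkn1b, the p27 inhibitor, was at -0.23 and Foxo1 at -0.24. Btg1 had the largest absolute ratio of this list at 0.43, from 0.95 and -0.09 on the arrays, and Tob1 was at 0.12.

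**Figure D5:**
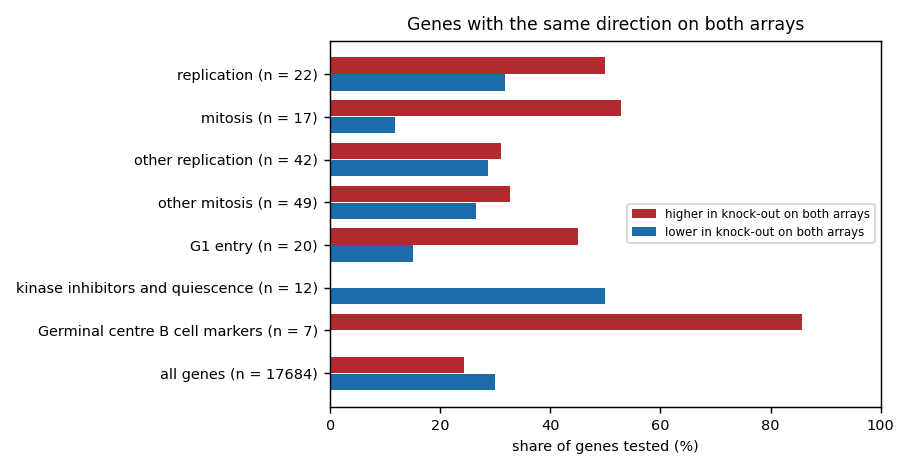
Share of tested genes (x axis, percent) that were higher (red) or lower (blue) in the knock-out on both arrays, for each gene list and for all 17684 genes. The replication and mitosis genes reach 50% and 52.9% higher, against 24.2% of all genes; with median centring the share higher is 23.1% for both lists together and 11.1% for all genes.

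Germinal centre markers were also mostly higher in the knock-out. Of 9 markers, 8 were on the array and 7 were tested; Mybl1 was not well above background in any channel. Of the 7, 6 were higher in the knock-out on both arrays, among them Rgs13, Fas, S1pr2, Gcsam and Neil1, where 24.2% of all genes were. The median log2 ratio was 0.44, from 0.47 and 0.43 on the arrays. In limma 0 passed the adjusted threshold and 5 were higher at an unadjusted p of 0.05, where 3.17% of all genes were. The summed intensity of the 7 markers was 26007 and 38782 in the wild-type pools and 28777 and 35664 in the knock-out pools, so that the sums overlapped. The part of germinal centre cells in the ratios of the mitosis genes was not tested. Of 7 T-cell markers, 6 were well above background in the knock-out and 7 in wild-type on both arrays. None was higher on both arrays and 4 were lower on both, beside 24.2% and 30% of all genes. In limma 0 passed the adjusted threshold and 3 were lower at an unadjusted p of 0.05 (Thy1 at -0.78, Cd3d at -0.60 and Cd8a at -0.39), where 5.98% of all genes were. For these 3 both knock-out pools lay below both wild-type pools, where 13.3% of all genes did so. The list had a median log2 ratio of -0.03 and summed intensities of 1561 and 1576 in wild-type and 1347 and 1301 in the knock-out. Of the plasma cell markers, Jchain alone passed (log2 ratio 1.81, limma adjusted p 0.0165), with 2 of 5 higher and 2 of 5 lower on both arrays. Of the NK cell markers 3 of 4 were well above background in wild-type on both arrays and 2 of 4 in the knock-out, with 0 of 3 tested higher and 2 lower on both arrays, Klrd1 at -0.57 among them. The stroma and endothelium list had 4 of 5 above background in wild-type and 3 of 5 in the knock-out, with 1 of 4 tested higher on both arrays and 2 lower. Myeloid markers were above background for 5 of 6 in wild-type and 3 of 6 in the knock-out, with 1 of 5 tested higher on both arrays and 0 lower. Erythroid markers were above background for 2 of 4 in each genotype, with 1 of 2 tested higher on both arrays and 0 lower. Beside the counts of each of these short lists, 24.2% of all genes were higher on both arrays and 30% lower on both. Summed intensities of wild-type and knock-out pools overlapped for the myeloid list (3924 and 8076 against 8499 and 5458), the stroma list (2387 and 2730 against 2293 and 2605) and the erythroid list (3743 and 4718 against 3828 and 3550). Those of the NK list did not (581 and 528 against 486 and 394). The part of these other cell types was not tested either.

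Some of these genes are neighbours of Ccr7 on chromosome 11, in a region that can carry donor sequence from the strain in which the allele was made. By probe position on mm8, Top2a lies 0.148 Mb and Cdc6 0.223 Mb from Ccr7, Tk1 and Birc5 both 18.7 Mb, and Aurkb 30.1 Mb. Their mean log2 ratios were -0.05 (Top2a), 0.25 (Cdc6), 0.38 (Tk1), 0.48 (Birc5) and -0.42 (Aurkb). For Top2a and Cdc6 a difference due to the loss of Ccr7 cannot be told apart from one due to donor sequence.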

How the data were processed

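The authors deposited spot intensity values of 2 two-colour arrays on 1 slide from Agilent Feature Extraction 9.5.3.1 (submitters' processing notes), with probe positions on mm8 per the file headers. A log10 ratio (Cy5/Cy3) stands beside them, background-subtracted and dye-normalized per the file headers. The deposited value table holds log2 ratios; turned to knock-out over wild-type, they equalled the scanner's ratio within 0.001 at 42512 and 42515 of 43379 spots on arrays 1 and 2, which settled scale and direction, and each column's median was 0. For the remaining spots the method is not given in these sources.

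From the intensities, background was corrected by normexp (offset 50) and ratios were normalized by loess (span 0.3, 4 iterations; weight 0 for 1639 control spots) with limma 3.58.1 in R 4.3.3. Outlier spots were left out and spots of a probe averaged. Levels are log2 intensities of each channel after loess and Aquantile scaling between arrays. Ratios were fitted with lmFit and eBayes, signed by dye orientation, each gene by its brightest probe, with Benjamini-Hochberg adjustment over 17684 genes; the fit was tested on simulated data. A fit of all 25973 probes called 31 (0.119%). Probes were named by RefSeq accession (24375), current symbol (6301) or synonym (2426), and the other 8072 kept the file's name.

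The genes, lists and alternatives were chosen with earlier results of these data known. Full values are given for the 6 replication and 6 mitosis genes with the largest absolute mean ratio of 1 sign on both arrays, for genes of opposite sign with at least 0.5 on 1 array, and for genes whose probes disagree; other genes named from the wider lists were chosen after their values were seen. The alternatives were no background subtraction, other ratios and scalings, other filters, the mean of probes, another prior, separate channels, removal of low-gain genes and each array alone. P-values combine the spread between 2 pool pairs with a prior spread pooled over all genes. Annotation of exons and UTRs on mm8 was not used here.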

Additional observations from a re-analysis of the deposited data

How the results depend on the processing

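In each of 11 other settings 0 of these genes passed the adjusted threshold, and the smallest limma adjusted p was 0.102, found when low-gain genes were left out. The count over all genes, 18, was 0 in 6 settings: the deposited value table, separate channels (no replicate block), the mean of probes, no within-array normalization, uncorrected background, and the log ratio of the scanner program; it was 4 with median centring, 9 when every channel had to be above background, 79 with an intensity trend and robust prior and 103 without low-gain genes. Of the genes higher on both arrays, 20 in the report, 9 were so after median centring and 1 without any scaling within arrays, where 0.532% of all genes were. The median of the replication genes turned to -0.16 after median centring and to -0.38 without scaling, and that of the mitosis genes to -0.086 without scaling. Relative to all genes these medians were 0.02, 0.02 and 0.31, against 0.09 and 0.18 in the report, so they stayed above the median of all genes in each case. Without scaling the ratio also turned to -0.086 for Ccnb1, -0.21 for Cenpe, -0.064 for Gins2 and -0.13 for Tk1. With each array alone, Cenpe ranged from -0.000336 to 0.52 and Nusap1 from -0.14 to 0.69. The other 187 values of named genes in other settings kept their sign, and for many of them it could not change. Settings that changed only the filter, the prior or the channel model left these ratios as they were. The deposited values and the scanner's log ratio gave the same ratios as each other for these genes, but sizes differed from the report. With them the ratio was 1.73 for Bub1, 0.75 for Cdk1 and 0.72 for Cdc6, against 0.33, 0.31 and 0.25 in the report. That of Mcm3 moved the other way in size, from -0.26 to -0.23. Genes chosen for 1 sign on both arrays could not turn with each array alone. Signal over background limits Cdk1, Bub1, Top2a, Kif11 and Cenpf, and the number of arrays limits every value.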

Other observations

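The wild-type pool of array 1 held the lowest of the 4 normalized levels for 8 of 17 mitosis genes (47.1%), 9 of 22 replication genes (40.9%) and 7 of 7 germinal centre markers, where it did so for 26.0% of all genes. Those 8 mitosis genes include Bub1 and Cdk1, which were not well above background in that pool. The knock-out pool of array 1 held the highest level for 11 of 17 mitosis genes (64.7%), where it did so for 26.7% of all genes. For the germinal centre markers the highest level was in the knock-out pool of array 2 for 6 of 7. These are counts over genes of the same 4 pools, which are not independent, and no test was made.

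Of the mitosis genes higher on both arrays, Mki67, Cdk1, Cdc20 and Kif11 held TTTGAA in the window, Birc5, Bub1 and Ccnb1 did not, and Ccna2 and Tpx2 had no window. In the wider lists TTTGAA occurred in 35 of 57 mitosis windows (61.4%) and 8 of 45 replication windows (17.8%), and an E2F-type motif in 9 of 45 replication windows (20.0%) and 6 of 57 mitosis windows (10.5%).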
